A study of Mus musculus with 6 samples.

Results

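The genes described here carry names of transcription factor and zinc finger families. Rows of the deposited table were taken when the gene name began with 1 of 25 prefixes (Zfp, Zbtb, Klf, Sox, Fox, Hox, Tbx, Tead, Stat, Irf, Ets, Etv, Nfi, Nfat, Mef2, E2f, Tcf, Smad, Bhlh, Creb, Hes, Hey, Pbx, Meis and Atf). This gave 17 of the 709 genes of the table. RNA-seq was performed on tibialis anterior (TA) muscle, a mostly fast-twitch muscle of the lower leg, from 3 NS-DADm and 3 WT mice, with 1 library per mouse. NS-DADm mice are whole-body knock-in animals that carry point mutations in the deacetylase-activating domains of nuclear receptor corepressors, NCoR among them, so the mutations are present in every cell type of the muscle and in other organs. WT controls were age-matched. All 6 mice were C57BL/6 and 21 weeks old according to the labels, and the methods give the substrain as C57BL/6 J. The labels give no sex, and the methods name males as the default for the study's experiments. Ncor1 and Hdac3 were not in the table, and a count per gene does not show a point mutation, so the genotypes were not checked against the data.

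The table holds only genes that the authors had called between these same 6 libraries, 709 of the 12308 genes they adjusted over (5.76%). Each member is therefore present because it differed, and its difference is given as a description. A family gene outside the table was either not tested or not called, and has no value here. Values are normalized counts, that is, reads divided by 1 size factor per library, and 1 read was estimated to be worth between 0.905 and 1.21 normalized counts. The reads of the 709 genes came to between 1047804 and 1411470 per library, of which the 17 members took 16681 to 22397, or 1.52% to 1.59% of these reads. Of 67 marker genes of muscle-resident cell types 4 were in the table, to be read beside the 5.76% of tested genes. How many of the 67 were tested is not known. Listed were 1 of 12 myofiber markers, 1 of 7 macrophage markers and 2 of 6 B and plasma cell markers. These were Ttn of the myofiber (321672 to 424956 in NS-DADm and 247705 to 275842 in WT), Mrc1 of macrophages, and the antibody genes Igkc and Igha. Mrc1 lay between 224 and 296 in NS-DADm and between 120 and 144 in WT, and Igkc and Igha together lay between 42.3 and 103 in NS-DADm and between 0.960 and 12.7 in WT. None of the markers chosen for satellite, endothelial, fibroblast, smooth muscle, T, Schwann or fat cells was in the table. Other genes of these cell types were not looked up. The part of these cells in the results below was not tested. In whole muscle, fewer cells of a type and less RNA per cell cannot be told apart.

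Corepressors such as NCoR bring the histone deacetylase HDAC3 to DNA-bound factors, above all nuclear receptors, and switch on its enzymatic activity. Transcription factors recognize short DNA sequences and set which genes are transcribed. C2H2 zinc finger proteins form the largest family of such factors in mammals. Homeobox, forkhead and SOX proteins are better known from patterning and cell identity in the embryo, whereas SMAD and STAT proteins wait in the cytoplasm until a receptor activates them. Not every member is a DNA-binding factor. Irf2bpl encodes a co-regulator named after a partner of an interferon regulatory factor, and Zfp385a encodes a zinc finger protein known as an RNA-binding protein and p53 partner.

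The 17 members came from 9 of the 25 prefixes: 8 Zfp genes, 2 Fox genes, and 1 each of Zbtb, Sox, Hox, Stat, Irf, Smad and Pbx. The other 16 prefixes had no gene in the table, among them Mef2, Tead, Nfat and Nfi, which hold well-known regulators of muscle genes. GENCODE M21 annotates 696 protein-coding genes with these prefixes, and 16 of them (2.30%) were in the table, against 644 of all 21951 protein-coding genes (2.93%). How many of the 696 were among the tested genes is not known.

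In NS-DADm muscles 9 of the 17 members were higher and 8 were lower than in WT muscles. All 9 and all 8 had a limma adjusted p under 0.05 over the listed genes, where 50.9% of the listed genes were called higher and 49.1% lower. A stricter adjustment took all 12308 genes as tested, with each unlisted gene given the largest possible p. Under it 7 members stayed higher and 3 lower, where 34.8% of the listed genes were called higher and 33.4% lower. NS-DADm and WT values were fully separate for 16 of the 17 members, against 97.9% of the listed genes. None of these shares is independent evidence, since the authors' call used the same libraries. With 3 mice against 3, the smallest p that an exact two-sided permutation test allows for any gene is 0.1.

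**Figure D1:**
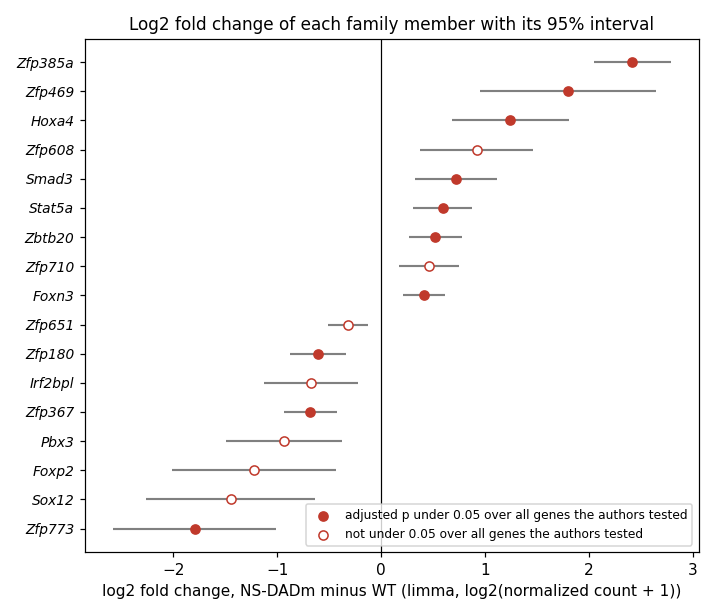
Log2 fold change (NS-DADm minus WT, limma on log2(normalized count + 1), x axis) of each of the 17 members, with its 95% interval as a horizontal line. Filled points are the 10 members with an adjusted p under 0.05 over all 12308 genes, open points the other 7; Zfp385a lies at 2.42 and Zfp773 at -1.80.

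Zfp385a showed by far the largest difference among the members. Its normalized counts were 638, 570 and 840 in NS-DADm and 141, 108 and 128 in WT. Even the lowest NS-DADm library was 4.03 times the highest WT library. The means were 682 ± 141 and 126 ± 16.6 (SD, n = 3 each), a 5.43-fold difference. The log2 fold change was 2.42 (standard error 0.17), with a limma adjusted p of 2.50e-04 over all 12308 genes. The gene lies at chr15:103313895-103340093 on the minus strand of GRCm38. When set beside the 50 listed genes nearest to it in mean count, its ratio was the second largest. No other member ranked above the sixth when compared with its own 50 nearest genes.

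RefSeq (GRCm38.p6) places 2 start sites in Zfp385a, and the 250 bases before each are shown because this gene leads the list. Capitals mark the E-box, CANNTG, the site of myogenic and other bHLH factors.
Zfp385a, first start site, chr15:103340087-103340336: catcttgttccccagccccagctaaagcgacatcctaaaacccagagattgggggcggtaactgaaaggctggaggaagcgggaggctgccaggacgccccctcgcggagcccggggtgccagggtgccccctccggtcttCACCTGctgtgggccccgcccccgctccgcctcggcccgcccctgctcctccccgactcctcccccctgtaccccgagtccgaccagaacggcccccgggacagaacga
Zfp385a, other start site, chr15:103334339-103334588: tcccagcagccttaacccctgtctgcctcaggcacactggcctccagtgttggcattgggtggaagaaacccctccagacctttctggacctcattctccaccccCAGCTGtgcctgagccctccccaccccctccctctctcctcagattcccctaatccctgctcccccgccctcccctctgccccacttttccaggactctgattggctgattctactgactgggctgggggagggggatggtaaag
The first window holds 19 CpG dinucleotides and 3 GC boxes (GGGCGG), the other 1 of each. The table does not say from which start site the reads came.

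Both windows are on the minus strand and are printed 5′ to 3′ in the direction of transcription. Of the 17 members, 12 matched the RefSeq promoter table, with 15 windows in all. An E-box, read on both strands, was found in 13 of the 15 windows, against 66.2% of all 32851 windows of the same length. GC boxes were found in 9 of the 15, against 32.7% of all windows, and the CCAAT box in 8, against 33.8%. None of the 15 held the TATAAA box, found in 12.4% of all windows. The member windows had a median of 17 CpG dinucleotides and all windows a median of 6. Such matches describe the sequence and do not show binding.

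**Figure D2:**
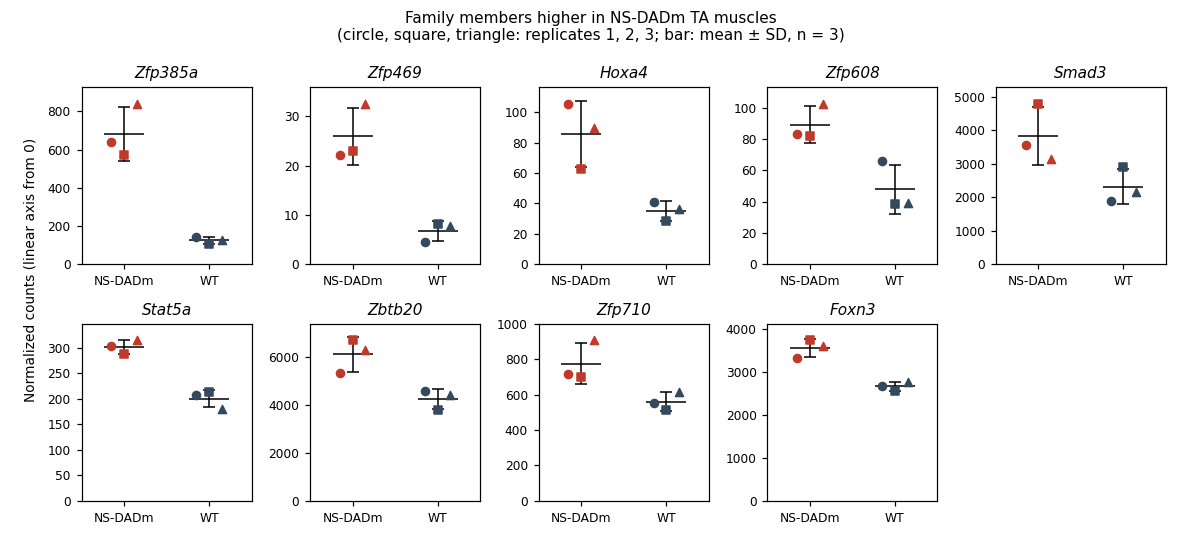
Normalized counts (y axis, from 0) of the 9 members that were higher in NS-DADm muscles, 1 panel per gene, with NS-DADm libraries on the left and WT libraries on the right. Points are single mice and bars the mean with its SD (n = 3); the groups are farthest apart in Zfp385a and closest in Smad3.

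Genes of the Zfp and Zbtb prefixes made up 5 of the 9 members that were higher and 4 of the 8 that were lower. After Zfp385a the largest ratio belonged to Zfp469, whose human counterpart is mutated in brittle cornea syndrome. Its normalized counts were 22.2, 23.1 and 32.6 in NS-DADm and 4.53, 8.19 and 7.68 in WT. By estimate these are 21, 24 and 27 reads against 5, 9 and 8 reads. The groups were separate in each mouse, but on few reads. The means were 25.9 ± 5.77 and 6.80 ± 1.99 (SD, n = 3 each), a 3.81-fold difference with a log2 fold change of 1.80 (standard error 0.38). At this low count a gene needed a large ratio to be listed, and 28 of its 50 nearest genes had a larger one. GENCODE M21 annotates the counted gene at chr8:122269569-122272650 as a long intergenic noncoding RNA, while RefSeq gives Zfp469 as protein-coding.

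Zfp608, a zinc finger gene at chr18:54888048-54992555, had normalized counts of 83.4, 81.6 and 103 in NS-DADm and 66.1, 38.2 and 39.4 in WT. The first WT mouse stood well above the other WT mice and close to the NS-DADm mice. The ratio of means was 1.86 and the log2 fold change 0.92 ± 0.25 (SE), and adjustment over all 12308 genes gave a limma p of 0.0717. Zbtb20 encodes a BTB-domain zinc finger repressor and was the most abundant member, the gene of rank 20 in the table by mean count. Its mean was 6098 ± 717 in NS-DADm and 4241 ± 420 in WT (SD, n = 3 each), a ratio of 1.44. The log2 fold change was 0.52, and 0.31 after quantile normalization of the listed genes alone. Zfp710 was 1.38-fold higher, at 776 ± 116 in NS-DADm and 562 ± 52.5 in WT (SD, n = 3 each). The third NS-DADm mouse, at 910, set it apart from the other NS-DADm mice, which were at 719 and 699. Its limma adjusted p over all 12308 genes was 0.0923.

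The homeobox gene Hoxa4, which takes part in head-to-tail patterning of the embryo, rose 2.44-fold. Its normalized counts were 106, 62.4 and 89.3 in NS-DADm and 40.7, 28.2 and 36.5 in WT. All NS-DADm mice were above all WT mice, with a wide spread among the NS-DADm mice. Its log2 fold change was 1.25 ± 0.26 (SE), and its limma adjusted p over all 12308 genes was 0.0238. Hoxa4 lies at chr6:52189671-52191753 and was the sole listed gene of the 39 annotated protein-coding Hox genes. An antisense gene, Gm29430, overlaps its exons, and no source used here says whether strand was used in counting. Unlisted genes on the opposite strand also overlap exons of Zfp608, Zbtb20, Zfp710, Zfp651 and Zfp367.

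Smad3 carries signals of TGF-beta, activin and myostatin, the last of which limits muscle mass. Its normalized counts were 3557, 4803 and 3136 in NS-DADm and 1895, 2895 and 2169 in WT. The groups only just separated, since the lowest NS-DADm mouse was 1.08 times the highest WT mouse. The ratio of means was 1.65, with a log2 fold change of 0.72 (standard error 0.18), and the limma adjusted p over all 12308 genes was 0.0495, close to the threshold. For its high mean count this was a large ratio, of rank 6 beside its 50 nearest genes. Smad3 lies at chr9:63646767-63757994. Per kilobase of exon it was the highest member in NS-DADm, at 691 normalized counts per kb against 419 in WT. In WT the highest member on this scale was Zfp651, at 503 in NS-DADm and 627 in WT.

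A list of 40 other genes of the TGF-beta, activin, myostatin and BMP pathways was written after the members' values were seen, and 4 of these were in the table, where 2.93% of annotated protein-coding genes and 5.76% of tested genes stood. How many of the 40 were tested is not known. The ligand Tgfb3 was 1.36-fold higher and Gdf11, a close relative of myostatin, 1.62-fold higher in NS-DADm. Smurf2, a ubiquitin ligase that targets SMADs and their receptors, was 1.31-fold lower and Nog, the BMP antagonist noggin, 2.40-fold lower. Over all 12308 genes Tgfb3 (limma adjusted p = 0.0320) and Gdf11 (0.0307) stayed under 0.05, and Smurf2 (0.0674) and Nog (0.0748) did not.

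Stat5a transmits signals of growth hormone, prolactin and other cytokines. Its normalized counts were 303, 287 and 315 in NS-DADm and 206, 213 and 181 in WT. Both groups were tight, with coefficients of variation of 4.63% and 8.58%. The ratio of means was 1.51 and the log2 fold change 0.59 ± 0.13 (SE), and the limma adjusted p over all 12308 genes was 0.0305. The gene lies at chr11:100859351-100885169, on the chromosome of Ncor1 but 38.4 Mb from it, and its exons overlap those of Stat3 on the opposite strand, which was not listed. Of 20 genes of growth hormone, cytokine receptor and JAK-STAT signalling, a list also written after the values were seen, 2 were in the table, to be read beside the same shares of 2.93% and 5.76%. Ghr, the growth hormone receptor, was 1.38-fold higher at 3755 ± 629 in NS-DADm and 2725 ± 65.6 in WT. Igfals, the acid-labile subunit that holds IGF proteins in the circulation, was 3.27-fold higher, with 221, 215 and 240 in NS-DADm against 52.5, 80.1 and 73.9 in WT. Over all 12308 genes the limma adjusted p was 7.71e-04 for Igfals and 0.0826 for Ghr.

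Stat5a was also the only one of the 12 members with promoter windows in which a window held the half-site AGGTCA (or TGACCT on the other strand), the core sequence bound by many nuclear receptors. It occurred in both of its windows and thus in 2 of the 15 member windows, a share close to the 14.0% of all 32851 windows. The windows are shown with the half-site in capitals.
Stat5a, first start site, chr11:100859406-100859655: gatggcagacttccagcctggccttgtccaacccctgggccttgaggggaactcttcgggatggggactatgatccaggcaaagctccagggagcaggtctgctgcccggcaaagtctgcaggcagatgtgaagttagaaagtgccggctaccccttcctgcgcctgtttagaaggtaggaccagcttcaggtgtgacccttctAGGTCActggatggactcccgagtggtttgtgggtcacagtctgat
Stat5a, other start site, chr11:100860234-100860483: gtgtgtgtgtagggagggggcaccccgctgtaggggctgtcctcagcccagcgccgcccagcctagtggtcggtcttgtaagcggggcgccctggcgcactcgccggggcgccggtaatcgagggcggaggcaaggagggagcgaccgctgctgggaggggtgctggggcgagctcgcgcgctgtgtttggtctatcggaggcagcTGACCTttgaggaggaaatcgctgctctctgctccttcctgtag
The half-site begins 46 bases before the first start site and 44 bases before the other. Both windows are on the plus strand of GRCm38.p6.

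Foxn3, a forkhead repressor, had the smallest rise of the members. Its mean was 3552 ± 212 in NS-DADm and 2662 ± 98.7 in WT (SD, n = 3 each), a ratio of 1.33 and a log2 fold change of 0.41 (standard error 0.09). The groups did not overlap, and the limma adjusted p over all 12308 genes was 0.0312. After quantile normalization of the listed genes alone, the log2 fold change was 0.20. The limma adjusted p over the listed genes was then 0.052, so the call was lost. The other forkhead member, Foxp2, was lower in NS-DADm, so the Fox genes did not move in 1 direction.

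**Figure D3:**
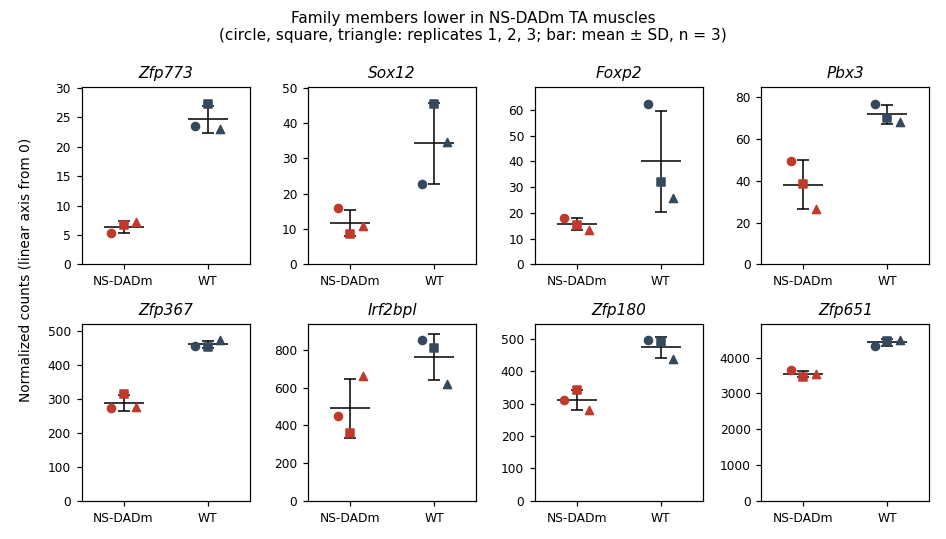
Normalized counts (y axis, from 0) of the 8 members that were lower in NS-DADm muscles, drawn in the same way, with NS-DADm on the left and WT on the right. The groups overlap in Irf2bpl alone, where the third NS-DADm mouse (664) is above the third WT mouse (622).

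Among the members that were lower, the largest ratios belonged to genes with few reads. Zfp773, a C2H2 zinc finger gene, had normalized counts of 5.28, 6.72 and 7.24 in NS-DADm and 23.5, 27.3 and 23.0 in WT. These rest on an estimated 5, 7 and 6 reads in NS-DADm against 26, 30 and 24 reads in WT, and the groups were clearly apart. The ratio of the WT to the NS-DADm mean was 3.84, the log2 fold change -1.80 (standard error 0.36) and the limma adjusted p over all 12308 genes 0.0213. It was one of 3 members that were lower under this adjustment. Zinc finger genes of 1 family resemble each other in sequence, and no source used here says how reads that fit several genes were counted.

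Zfp773 lies at chr7:7127073-7136755, close to the imprinted Peg3 domain, in which most genes are read from 1 parental copy. Of the 15 protein-coding genes within 500 kb of it, 3 were in the table, and all 3 were lower in NS-DADm. Over all genes 2.93% of annotated protein-coding genes were listed, and 49.1% of the listed genes were lower. The region was chosen with these values known. Clcn4, a chloride-proton exchanger 146 kb away, had a mean of 890 ± 42.6 in NS-DADm and 1146 ± 32.2 in WT. Usp29, a ubiquitin protease gene 160 kb away, had 16.9, 14.4 and 9.66 in NS-DADm and 39.8, 23.7 and 46.1 in WT, a 2.68-fold difference. Peg3, a zinc finger gene of this domain 397 kb away, had 582, 740 and 575 in NS-DADm and 1403, 919 and 1070 in WT, a 1.79-fold difference. In none of the 3 did the groups overlap, and the same held for 97.9% of the listed genes. Over all 12308 genes Peg3 had a limma adjusted p of 0.0194, Clcn4 of 0.0634 and Usp29 of 0.0679. Whether these genes share a cause was not tested.

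**Figure D4:**
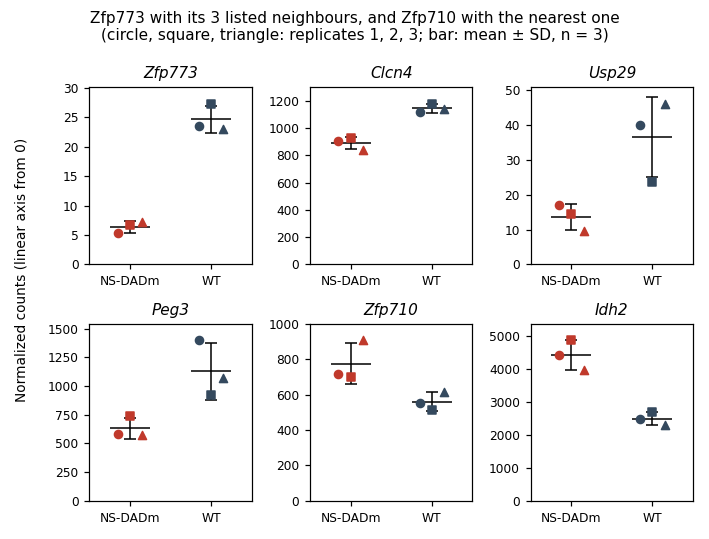
Normalized counts (y axis, from 0) of Zfp773 with Clcn4, Usp29 and Peg3, its 3 listed neighbours within 500 kb, and of Zfp710 with Idh2, in NS-DADm (left) and WT (right) libraries. Points are single mice and bars the mean with its SD (n = 3); the first 4 genes are lower and the last pair higher in NS-DADm.

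The 250 bases before the RefSeq start of Zfp773 are shown as those of the member with the largest fall, with E-boxes in capitals.
Zfp773, chr7:7136756-7137005, minus strand of GRCm38.p6: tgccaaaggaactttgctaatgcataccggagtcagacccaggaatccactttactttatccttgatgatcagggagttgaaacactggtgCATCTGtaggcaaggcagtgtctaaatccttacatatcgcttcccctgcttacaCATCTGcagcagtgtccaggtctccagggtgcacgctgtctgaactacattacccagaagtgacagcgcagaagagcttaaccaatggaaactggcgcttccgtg
This window held 6 CpG dinucleotides, against a median of 17 in the member windows, no GC box and the same E-box letters, CATCTG, at both sites.

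Zfp710 also had listed neighbours. Idh2, the mitochondrial NADP-dependent isocitrate dehydrogenase, ends 0.673 kb from it on the opposite strand and was 1.77-fold higher, at 4422 ± 453 in NS-DADm and 2492 ± 199 in WT (SD, n = 3 each). Its limma adjusted p over all 12308 genes was 0.00222. Idh2 had more reads than Zfp710, and no exons of these genes overlap in the annotation. Pex11a and Blm, 282 kb and 361 kb from Zfp710, were 1.43-fold and 2.21-fold higher, with limma adjusted p over all 12308 genes of 0.0415 and 0.0785. Of all listed genes 50.9% were higher, and the unlisted genes within 500 kb of Zfp710 were not counted. Elsewhere 1 listed gene lay within 500 kb of Zfp385a (Ppp1r1a, 1.52-fold higher), Hoxa4 (Hibadh, 1.26-fold higher), Zbtb20 (Zdhhc23, 2.13-fold higher) and Zfp367 (Ctsl, 1.52-fold higher). Over all 12308 genes the limma adjusted p was 0.0270 for Ppp1r1a and 0.0216 for Ctsl, but 0.0725 for Hibadh and 0.196 for Zdhhc23. In Zdhhc23 the second NS-DADm mouse, at 103, stood apart from the others at 53.9 and 42.2. Of these 4 neighbours, Ctsl moved against its member, which was lower.

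Sox12 is a SOX factor of the group that also holds Sox4 and Sox11. Per library it had 15.8, 8.64 and 10.9 in NS-DADm and 22.6, 45.5 and 34.6 in WT. The groups did not overlap, and the first WT mouse lay closer to the first NS-DADm mouse than to the other WT mice. The WT mean was 2.91 times the NS-DADm mean, the log2 fold change -1.45 (standard error 0.37) and the limma adjusted p over all 12308 genes 0.0574. The gene lies at chr2:152393611-152398063.

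For Foxp2, a forkhead repressor best known from speech disorder in humans, the libraries gave 18.0, 15.4 and 13.3 in NS-DADm and 62.5, 31.9 and 25.9 in WT. The first WT mouse carried much of the difference, and the WT coefficient of variation was 48.9%, the widest of any member. The WT mean was 2.58 times the NS-DADm mean, with a log2 fold change of -1.22 (standard error 0.36). Without that mouse the log2 fold change was -0.86, and the limma adjusted p over all 12308 genes, with all mice, was 0.111. Foxp2 lies at chr6:14901349-15441977.

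Pbx3 encodes a homeobox partner that binds DNA together with Hox proteins. The libraries gave 49.6, 38.4 and 26.6 in NS-DADm and 77.0, 70.1 and 68.2 in WT. The WT mice were close together and the NS-DADm mice were spread below them. The WT mean was 1.88 times the NS-DADm mean, and the log2 fold change was -0.93 ± 0.25 (SE). Over all 12308 genes the limma adjusted p was 0.0772. Pbx3, at chr2:34171457-34373142, and Hoxa4 thus differed in opposite directions.

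Zfp367 had the smallest adjusted p of the members that were lower. In NS-DADm the values were 272, 314 and 275, and in WT 455, 452 and 473. The WT coefficient of variation was 2.52% and that of NS-DADm 8.10%. The WT mean was 1.60 times the NS-DADm mean, the log2 fold change -0.68 (standard error 0.12) and the limma adjusted p over all 12308 genes 0.0105. The gene lies at chr13:64133018-64153202.

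Zfp180 had normalized counts of 310, 343 and 281 in NS-DADm and 496, 489 and 437 in WT. Again no NS-DADm mouse reached a WT mouse. The WT mean was 1.52 times the NS-DADm mean, and the log2 fold change was -0.61 ± 0.12 (SE). Adjusted over all 12308 genes, its limma p was 0.0234. Zfp180 lies at chr7:24081924-24107713.

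Irf2bpl, the co-regulator, had normalized counts of 449, 358 and 664 in NS-DADm and 854, 812 and 622 in WT. Here the groups overlapped through the third mouse of each genotype. The WT mean was 1.56 times the NS-DADm mean, and the log2 fold change was -0.67 ± 0.21 (SE). With adjustment over all 12308 genes its limma p was 0.137. The gene lies at chr12:86880701-86884798. Zfp651 had the smallest difference of all members, at 3551 ± 91.1 in NS-DADm and 4428 ± 87.7 in WT (SD, n = 3 each), a WT to NS-DADm ratio of 1.25. Its coefficient of variation was 2.57% in NS-DADm and 1.98% in WT. This was also the smallest ratio of any listed gene whose mean reached 1000 normalized counts, and its limma adjusted p over all 12308 genes was 0.0733.

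**Figure D5:**
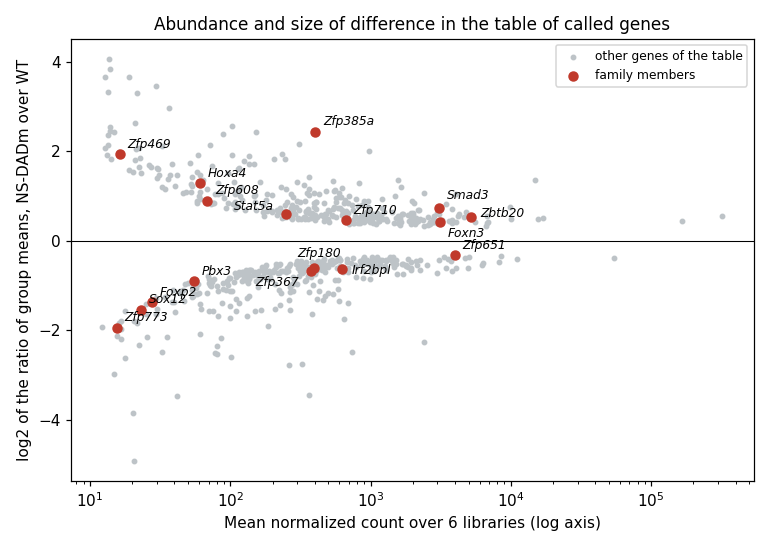
Mean normalized count over the 6 libraries (x axis, log scale) and log2 of the ratio of group means, NS-DADm over WT (y axis), for the 17 members (labelled) and the other genes of the table. No listed gene lies in the band around 0, which is wider at low counts; Zfp385a stands above the genes of similar count.

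Member ratios followed abundance as in the rest of the table. The 7 members with a mean under 100 normalized counts all differed at least 1.86-fold, and the smallest ratio of any listed gene in that range was 1.67. The 4 members with a mean of at least 1000 differed between 1.25-fold and 1.65-fold. The median log2 ratio size was 0.72 in the 17 members and 0.71 in the 709 listed genes. Of the members 3 were at least 2-fold higher and 3 at least 2-fold lower, against 112 and 104 of the 709. The median coefficient of variation of the members was 15.1% in NS-DADm and 9.91% in WT, against 12.0% and 10.5% over the table. Among NS-DADm mice, the highest value of a member fell to replicates 1, 2 and 3 in 5, 5 and 7 genes. Among WT mice this was so in 8, 5 and 4 genes.

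Other regulators of transcription were looked up in 6 lists of 214 symbols, of which 12 were in the table, 6 higher and 6 lower in NS-DADm. The table held 2.93% of annotated protein-coding genes and 5.76% of tested genes. Of 12 myogenic bHLH and Id factors, including Myod1 and Myog, none was listed. Among 25 AP-1, Egr, Myc and Maf factors, Bach2 was 2.12-fold higher. The 34 further homeobox and homeobox-like factors gave 2 listed genes, Six2 (3.12-fold lower) and Cux2 (1.87-fold lower). The 56 further C2H2 factors gave Ikzf2 (1.44-fold higher), Peg3 (above) and Maz (1.49-fold lower). In the remaining list of 67 factors, Trp63, the p53 relative of epithelial stem cells, was 3.56-fold higher, with 214, 669 and 258 in NS-DADm and 123, 104 and 94.1 in WT. The second NS-DADm mouse was far above the others. Elf3, an epithelial ETS factor, was 5.41-fold higher at 16.9, 24.0 and 33.8 in NS-DADm and 6.34, 3.64 and 3.84 in WT, and Runx1 2.35-fold higher. Relb was 2.03-fold lower and Vgll2, a TEAD cofactor of skeletal muscle, 1.46-fold lower with overlapping groups.

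The last of the 6 lists held 20 corepressor and HDAC partners. Tbl1xr1, a subunit of the NCoR complex, was the only gene of the list in the table and was 1.75-fold higher, at 1011, 1295 and 999 in NS-DADm and 600, 581 and 705 in WT. Over all 12308 genes Tbl1xr1 (limma adjusted p = 0.00791), Maz (0.00927), Relb (0.0141), Elf3 (0.0201), Trp63 (0.0263), Six2 (0.0385) and Cux2 (0.0391) stayed under 0.05. Runx1 (0.0685), Ikzf2 (0.0887), Bach2 (0.0959) and Vgll2 (0.140) did not.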

How the data were processed

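RNA from TA muscles of 3 NS-DADm and 3 WT mice was sequenced, and genotypes were taken from the sample titles. Reads were aligned to mm10 (GRCm38), by STAR in the paper's methods and by TopHat2 2.1.0 in the submitters' processing notes, which also list HTSeq and DESeq2 1.8.2. Which aligner made the values, and whether strand was used, was not settled. The authors' deposited values per library are a signal, read counts divided by a size factor, for called genes only. Dividing by the step of each library returned whole numbers for 100% of values (tolerance 0.01 reads). Read numbers rest on this step, which was estimated here. A second estimate did not return whole reads, and the difference was not settled. The authors' deposited p-values served here only to find the 12308 genes adjusted over, and their fold changes and means were not used.

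Group differences came from limma 3.58.1 (R 4.3.3) on log2(normalized count + 1), which understates changes of low genes, with a mean-variance trend and Benjamini-Hochberg adjustment. No filter was applied. The p-values set each group difference against the spread between these mice. That spread and its trend were estimated from the listed genes alone, all of them called on these same libraries. The adjustment over all 12308 genes used the same p-values. Every member was named, those at least 1.5-fold different with all 6 values. Members and lists were chosen with earlier results of these data known. Positions and exon lengths are from GENCODE M21, and promoter sequences from RefSeq (GRCm38.p6). The limma fit was also run on simulated counts in which most genes did not differ, unlike those of the table. Alternatives covered scaling, pseudocount, filter, adjustment, trend, replicate block and leaving out each library. Intervals of log2 fold changes are at 95%. No source used here gives the total depth per library.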

Additional observations from a re-analysis of the deposited data

How the results depend on the processing

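The counts of 9 higher and 8 lower members did not change when any 1 library was left out, nor with the replicate block. In these settings 358 to 361 of all 709 listed genes were called higher and 345 to 348 lower. Almost every listed gene was thus called, member or not. Libraries with the same number had deviations from their group means that correlated at -0.15, 0.15 and 0.05, and the numbers were not taken as pairs. The members called lower numbered 5 when only genes with a mean of at least 50 were kept, because Zfp773, Sox12 and Foxp2 then left the table, and 3 when p-values were adjusted over all 12308 genes, because more genes enter that adjustment. Of 234 alternative values of single members, 226 kept their direction and call, 8 missed the threshold and 0 changed direction. Of the 8, 7 came from the adjustment over all genes, the only setting that did not adjust over called genes alone. In that setting 247 listed genes were called higher and 237 lower, against 361 and 348 in the main setting. The other 1, Foxn3, came from quantile normalization (log2 fold change 0.20, adjusted p = 0.052 with limma), and the cause for Foxn3 was not tested. The same normalization gave Zbtb20 a log2 fold change of 0.31, against 0.52 without it. Rescaling by median ratios moved log2 fold changes by a median of -0.07. Quantile normalization and this rescaling used the listed genes alone. Every listed gene had been called, so neither step could rest on unchanged genes. All these genes had been chosen from the same libraries, which favours unchanged calls. Planned edgeR and DESeq2 tests on recovered reads were not run. Members with few reads, Zfp773, Zfp469, Sox12 and Foxp2, are limited by counting error.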
